A study of Oncorhynchus mykiss with 32 samples.

Results

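The livers of lean and fatty muscle rainbow trout were examined here for 7 cDNA clones of detoxification and antioxidant proteins, out of 9023 trout clones on the array. 3 of them were named by identifier: a cytochrome P450 2K4 clone (CP2K4, tcay0004.g.21), a UDP-glucuronosyltransferase 2A1 clone (UDA1, 1RT126G07_A_D04) and an 8-oxo-dGTPase clone (8ODP, tcad0009.d.22). The other 4 were found by description among the clones that the study listed as changed by the diet or by the line: cytochrome P450 2J2 (CP2J2, tcay0039.p.23), dimethylaniline monooxygenase (FMO6, tcay0039.h.03), the ABC transporter G2 (ABCG2, tcay0015.e.08) and peptide methionine sulfoxide reductase (MSRA, 1RT156C12_C_B06). Each name is the best protein match of the clone's sequence, often in another species (human for CP2J2, FMO6, UDA1 and 8ODP, mouse for ABCG2, bovine for MSRA, rainbow trout for CP2K4). All 7 clones had a value on all 32 arrays and passed the filter on missing values, as did 7763 of the 9023 clones.

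The liver clears foreign compounds and endogenous lipophilic molecules in stages. Cytochromes P450 and flavin-containing monooxygenases oxidise them, UDP-glucuronosyltransferases attach glucuronic acid to make them soluble, and ABC transporters pump them or their conjugates out of the cell. The P450 of family 2J known from mammals also epoxidises polyunsaturated fatty acids. A separate set of enzymes deals with oxidative damage: methionine sulfoxide reductase restores oxidised methionine in proteins, and 8-oxo-dGTPase removes oxidised guanine nucleotides before they can enter DNA.

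The fish belonged to 2 lines of trout selected in opposite directions for the fat content of the muscle, lean (L) and fatty (F). From first feeding and for 6 months, tanks of either line were given a diet of 10% lipids (LE) or of 23% lipids (HE), the latter enriched with fish oil. The 4 groups (F-LE, F-HE, L-LE, L-HE) held 8 livers each, from 3 tanks per group. The tank of each liver was read from the number that follows its group in the label. All results by tank rest on that reading. Each liver was hybridised to 1 nylon array with 33P-labelled cDNA. The lines are 1 selected population each, so a difference between them is that of these populations, and whole liver was used, so fewer cells of a type and less RNA per cell cannot be told apart. A level below is the log2 of a clone's signal over the median of its array, a diet difference is HE minus LE averaged over the lines, and a line difference is F minus L averaged over the diets.

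Of the 32 arrays, 6 had a median Spearman correlation with the other arrays under a limit of 0.9. It was 0.159 on array 59 and 0.828 to 0.896 on the other 5, against 0.907 to 0.967 on the 26 left. The limit lies in no gap, since array 19 of L-LE had 0.907 and the next array 0.94. The 6 were arrays 53, 56 and 68 of L-LE, 62 of F-LE, and 59 and 65 of F-HE (numbers from the labels). Differences between groups are given on 32 arrays and on these 26, which were 8 in L-HE, 7 in F-LE, 6 in F-HE and 5 in L-LE. Among the 26, tank 2 of L-LE had no liver left and tank 2 of F-HE had a single liver, on array 7. Array numbers were uneven between the diets in the L line. Those of L-HE were 13 to 34 and 55, and those of L-LE were 19, 20 and 45 to 68. In the F line they ran from 5 to 72 on LE and from 7 to 67 on HE. The 6 arrays of low correlation lay between 53 and 68. Diet and array number are thus partly mixed in the L line. Markers of hepatocytes (apolipoprotein A-I-1, transthyretin, plasminogen, complement C3 and alpha-2-macroglobulin) were above the array median on all 26 arrays, and transthyretin, plasminogen and complement C3 were below it on array 59 alone. Of 3 erythroid markers, band 3 and ERMAP were above the median on all 26 arrays and RHAG was below it on all 32. Both muscle markers, parvalbumin and titin, were above it on all 26.

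On the 26 arrays the HE diet was accompanied by a higher CP2J2 level (log2 difference 1.24, standard error 0.302, adjusted p = 0.0567) and a lower MSRA level (-0.43, standard error 0.103, adjusted p = 0.0533), and these were the 2 clones of the 7 that passed the adjusted p of 0.15. On 26 arrays 0.953% of all clones tested passed for the diet. On 32 arrays none of the 7 passed, where 0.245% of all clones did and 1 of the 7 (CP2J2) had an unadjusted p under 0.05, as did 3.65% of all. For the line, limma called 0 of 7763 clones on 32 arrays and 0 on 26, so none of the 7 passed. On 32 arrays 5 of the 7 had an unadjusted p under 0.05, 4 higher in the F line and CP2J2 lower, against 3.32% of all clones. On 26 arrays 5 did, all higher in the F line and without CP2J2, against 7.23% of all clones. The estimate was higher in the F line for 6 of the 7 clones, all but CP2J2, on 32 and on 26 arrays (51.2% and 48.2% of all clones), with a median line difference of 0.40 and 0.35. CP2K4, FMO6, UDA1, ABCG2 and 8ODP had been listed by the study for a higher level in the F line. CP2J2 had been listed for a higher and MSRA for a lower level on the HE diet. The lists drew on a part of these livers, so those counts and directions are not independent evidence. The same holds for the separations, ranks and tests of those differences below. The diet differences of the first 5 and the line differences of CP2J2 and MSRA were not what listed these clones.

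**Figure D1:**
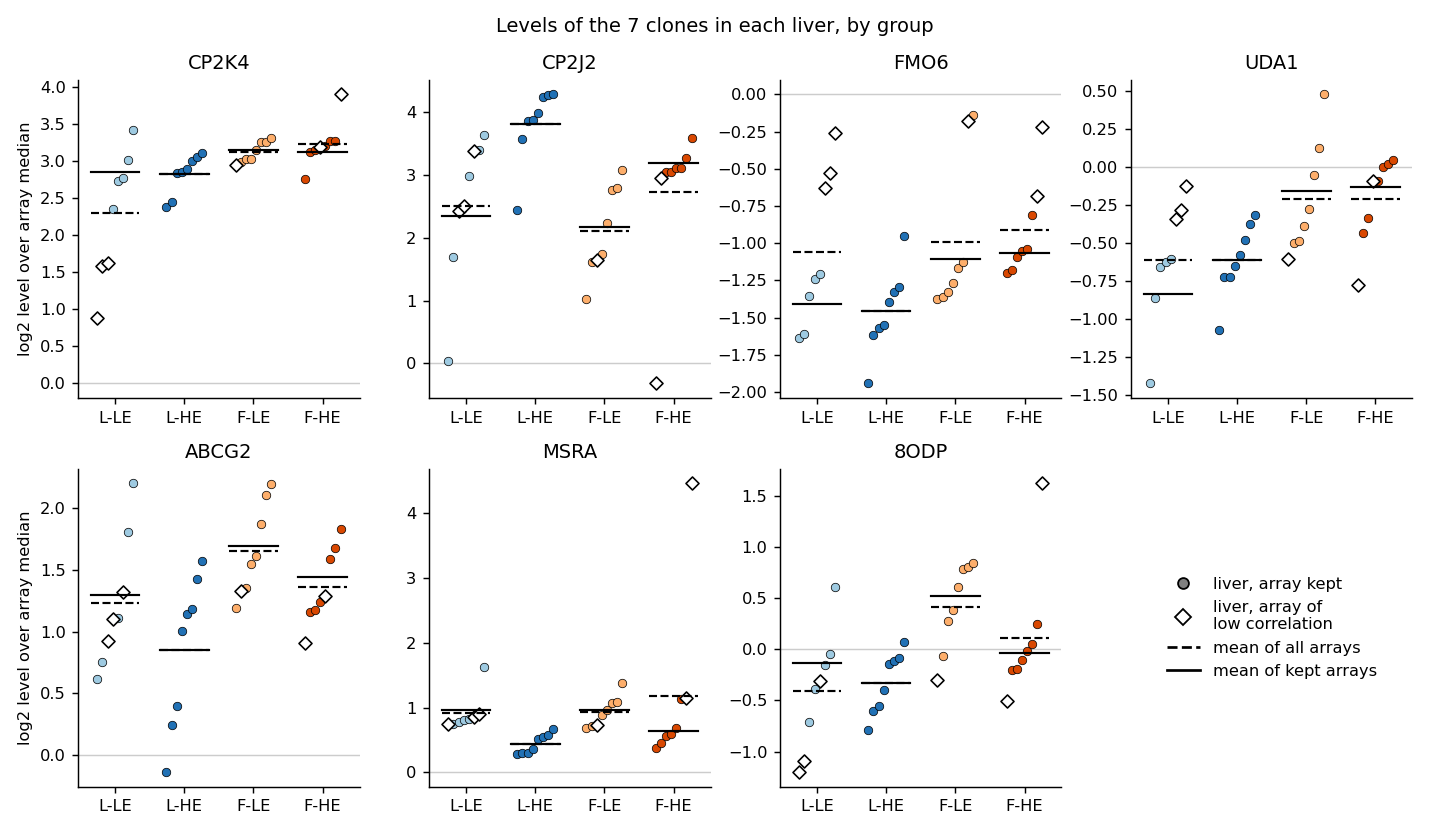
Level of each of the 7 clones (y axis, log2 over the array median) in each liver of the 4 groups (x axis). Circles are the 26 arrays kept, diamonds the 6 of low correlation, dashed and solid bars the group means over all and over the kept arrays. CP2J2 is highest in L-HE, MSRA is lower in every L-HE liver than in any L-LE liver, and array 59 of F-HE is the lone diamond at 4.46 for MSRA.

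CP2K4 belongs to a P450 family of fishes, and its level was above the array median on all 32 arrays. In the L line its lowest, median and highest levels were 0.88, 2.55 and 3.43 on the LE diet and 2.39, 2.88 and 3.12 on the HE diet. In the F line they were 2.95, 3.10 and 3.32 on the LE diet and 2.77, 3.20 and 3.91 on the HE diet. All 8 F-LE livers lay above the L-LE median and 7 of the 8 F-HE livers above the highest L-HE liver, while the ranges of neighbouring groups overlapped. Here and for the clones below, the share of all clones with livers so placed was counted only for ranges without overlap. The 3 L-LE arrays of low correlation held the 3 lowest values, 0.88, 1.58 and 1.62, against 2.36 to 3.43 on the 5 others, and array 59 held the highest value. The line difference was 0.62 (standard error 0.168, adjusted p = 0.999) on 32 arrays and 0.30 (standard error 0.102, adjusted p = 0.515) on 26, a ratio of 1.53 and 1.23. Over tank means it was 0.67 on all arrays (exact p = 0.005, two-sided permutation) and 0.27 on the 26 (exact p = 0.035). The diet difference, which did not list the clone, was 0.32 (adjusted p = 1) on 32 arrays and -0.025 (95% interval -0.24 to 0.18, adjusted p = 0.979) on 26, so it lost its sign with the 6 arrays. On the kept arrays the group means (± SD) were 3.15 ± 0.13 in F-LE (n = 7) and 3.13 ± 0.19 in F-HE (n = 6), with 2.86 ± 0.39 in L-LE (n = 5) and 2.83 ± 0.27 in L-HE (n = 8), so the order of the lines held in either diet.

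CP2J2, the match to the human arachidonic acid epoxygenase, was the most variable of the 7. Its standard deviation within groups was 0.83 on 26 arrays, larger than that of 97.9% of all clones tested. In the L line its lowest, median and highest levels were 0.03, 2.74 and 3.64 on the LE diet and 2.45, 3.93 and 4.28 on the HE diet. For the F line the same values were 1.03, 1.99 and 3.09 on the LE diet and -0.32, 3.08 and 3.59 on the HE diet. In L-HE 6 of 8 livers were above every L-LE liver, and in F-HE 4 of 8 were above every F-LE liver. The lowest F-HE value was array 59, with the other 7 livers between 2.95 and 3.59. The diet difference was 0.96 (standard error 0.33, adjusted p = 0.815) on 32 arrays and 1.24 on 26, a ratio of 1.95 and 2.37. Leaving out array 59 alone gave 1.18 (adjusted p = 0.0301).

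Within the lines, on 26 arrays, the CP2J2 diet difference was 1.47 in L (standard error 0.433, adjusted p = 0.414) and 1.02 in F (standard error 0.422, adjusted p = 0.799), and their difference was -0.45 (standard error 0.604, adjusted p = 0.999). On 32 arrays these were 1.31 (adjusted p = 0.769), 0.61 (adjusted p = 0.751) and -0.70 (adjusted p = 0.584). Neither line passed on its own. On the 26 arrays the tank means lay between 3.34 and 4.14 in L-HE, with 1.5 and 2.91 in the 2 L-LE tanks left. They lay between 3.04 and 3.35 in F-HE, where the 3.04 was a single liver, and between 1.89 and 2.54 in F-LE. How many of all clones had tank means so apart was not counted. The difference over tank means was 1.00 on 32 arrays (exact p = 0.01, two-sided permutation) and 1.35 on the 26 (exact p = 0.005, the smallest that these tanks allow). Without a further array, 66 of L-LE, the diet difference was 1.16 (adjusted p = 0.159) and the call was lost. It was kept without any other 1 of the 26, at 0.95 (adjusted p = 0.084) without array 19. The CP2J2 estimate was higher in the L line, a difference that did not list it: -0.75 (standard error 0.33, unadjusted p = 0.0306, adjusted p = 0.999) on 32 arrays and -0.40 (95% interval -1.02 to 0.22, adjusted p = 0.801) on 26. Without any 1 of the 32 arrays it was -0.92 to -0.53. Over tank means this line difference was -0.75 on 32 arrays (exact p = 0.025, two-sided permutation) and -0.38 on the 26 (exact p = 0.27).

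FMO6, the match to a protein of the flavin-containing monooxygenase family, was below the array median on all 32 arrays. In the L line its lowest, median and highest levels were -1.64, -1.23 and -0.26 on the LE diet and -1.94, -1.47 and -0.95 on the HE diet. F livers had levels of -1.37, -1.22 and -0.14 on the LE diet and -1.20, -1.05 and -0.22 on the HE diet. The groups overlapped, and the 3 highest L-LE values, -0.63, -0.52 and -0.26, were on its 3 arrays of low correlation. The highest F-LE value was on array 5, which is not one of the 6. The line difference was 0.31 (standard error 0.151, adjusted p = 0.999) on 32 arrays and 0.35 (standard error 0.118, adjusted p = 0.515) on 26. Over tank means it was 0.26 (exact p = 0.28, two-sided permutation) and 0.38 on the 26 (exact p = 0.015). The diet difference was -0.16 (adjusted p = 1) and, on 26 arrays, between -0.24 and 0.24 by its 95% interval.

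**Figure D2:**
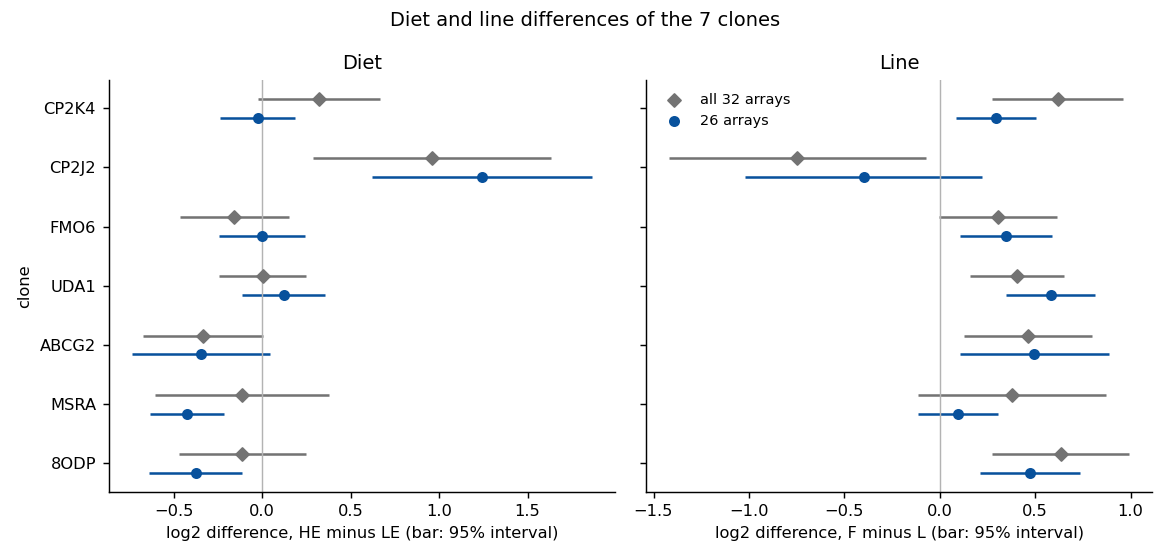
Diet difference (left, HE minus LE) and line difference (right, F minus L) of the 7 clones, as log2 differences with 95% intervals from limma. Grey diamonds are all 32 arrays and blue circles the 26 kept. CP2J2 moves to 1.24 and MSRA to -0.43 for the diet on 26 arrays, and the line difference of CP2K4 is 0.62 on 32 arrays and 0.30 on 26.

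UDA1, the match to a glucuronosyltransferase of family 2, had levels near or below the array median, higher in the F line, and its line difference was larger without the 6 arrays. In the L line its lowest, median and highest levels were -1.43, -0.62 and -0.13 on the LE diet and -1.08, -0.62 and -0.32 on the HE diet. In the F line they were -0.61, -0.33 and 0.48 on the LE diet and -0.78, -0.09 and 0.04 on the HE diet. All 16 L livers were below the array median, as were 12 of the 16 F livers. The 3 L-LE arrays of low correlation held its 3 highest values, between -0.34 and -0.13, so that on the 26 arrays all 7 F-LE livers lay above all 5 L-LE livers. Ranges without overlap were found for 0.528% of all clones in that pair of groups. The line difference was 0.40 (standard error 0.122, adjusted p = 0.999) on 32 arrays and 0.58 (standard error 0.115, unadjusted p = 2.6e-05, adjusted p = 0.151) on 26, a ratio of 1.32 and 1.5. On 26 arrays this was the smallest p of the 7763 clones for the line, and it lay just outside the threshold of 0.15. It passed without any 1 of 8 further arrays, with adjusted p between 0.0781 and 0.148, and the highest adjusted p without any 1 array was 0.316. Over tank means the difference was 0.37 (exact p = 0.005, two-sided permutation) and 0.53 on the 26 (exact p = 0.005). The line difference had listed UDA1, so its separation, rank and tests for the line are no independent evidence. Within the diets the line difference was 0.40 on LE (adjusted p = 0.962) and 0.41 on HE (adjusted p = 0.597) on 32 arrays, and 0.68 (adjusted p = 0.348) and 0.48 (adjusted p = 0.998) on 26. The diet difference had a 95% interval of -0.24 to 0.25 on 32 arrays and -0.11 to 0.36 on 26.

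ABCG2, an efflux pump of the apical membrane in mammalian hepatocytes, was above the array median on 31 of 32 arrays. In the L line its lowest, median and highest levels were 0.61, 1.11 and 2.20 on the LE diet and -0.14, 1.07 and 1.57 on the HE diet. The corresponding F levels were 1.19, 1.58 and 2.20 on the LE diet and 0.90, 1.26 and 1.83 on the HE diet. All 8 F-LE livers lay above the L-LE median and all neighbouring groups overlapped. The line difference was 0.46 (standard error 0.165, adjusted p = 0.999) on 32 arrays and 0.49 (standard error 0.19, adjusted p = 0.574) on 26, and over tank means it was 0.45 and 0.49 (exact p = 0.015 in either, two-sided permutation). The diet difference, which did not list the clone, was -0.33 (standard error 0.165, unadjusted p = 0.0518, adjusted p = 1) and -0.35 (95% interval -0.74 to 0.04, adjusted p = 0.797), a ratio of 0.793 and 0.786. The lowest ABCG2 level, in L-HE, was on array 17, which also held the lowest CP2J2 level of that group.

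MSRA was above the array median on all 32 arrays. In the L line its lowest, median and highest levels were 0.75, 0.82 and 1.63 on the LE diet and 0.28, 0.44 and 0.67 on the HE diet. All 8 L-HE livers thus lay below all 8 L-LE livers, a separation found for 0.0644% of all clones in that pair of groups. MSRA had been listed for its lower level on the HE diet, so this separation is no independent evidence. The array numbers of L-HE and L-LE differed as well, as given above. For the F line the same values were 0.68, 0.93 and 1.37 on the LE diet and 0.37, 0.64 and 4.46 on the HE diet. The highest F-HE value was array 59, with the other 7 livers between 0.37 and 1.15, and 4 of the 8 F-HE livers were below every F-LE liver. The diet difference was -0.12 (standard error 0.241, adjusted p = 1) on 32 arrays and -0.43 on 26, a ratio of 0.923 and 0.745. Leaving out array 59 alone gave -0.35 (adjusted p = 0.177), outside the threshold.

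Within the lines the MSRA diet difference on 26 arrays was -0.52 in L (standard error 0.147, adjusted p = 0.356) and -0.33 in F (standard error 0.143, adjusted p = 0.867), and their difference was 0.18 (standard error 0.205, adjusted p = 0.999). On 32 arrays it was -0.47 in L (adjusted p = 0.769) but 0.24 in F (adjusted p = 0.804), the opposite sign, with a difference of 0.71 between them (adjusted p = 0.548). Without the 6 arrays the 3 L-HE tank means lay between 0.37 and 0.51, with 0.80 and 1.204 in the L-LE tanks left. The F-HE tank means lay between 0.47 and 0.912, with 0.91 to 1.04 in F-LE, so the ranges of the F tanks crossed slightly. The share of all clones with such tank means was not counted. The difference over tank means was -0.13 on 32 arrays (exact p = 0.705, two-sided permutation), with 0.19 in F, and -0.44 on the 26 (exact p = 0.01). Without any 1 further array of the 26 it remained called, at -0.48 to -0.34 and adjusted p between 0.0147 and 0.123, the smallest difference being that without array 19 (adjusted p = 0.105). The line difference, which did not list MSRA, was 0.38 (95% interval -0.11 to 0.87, adjusted p = 0.999) on 32 arrays and 0.10 (95% interval -0.11 to 0.31, adjusted p = 0.885) on 26.

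**Figure D3:**
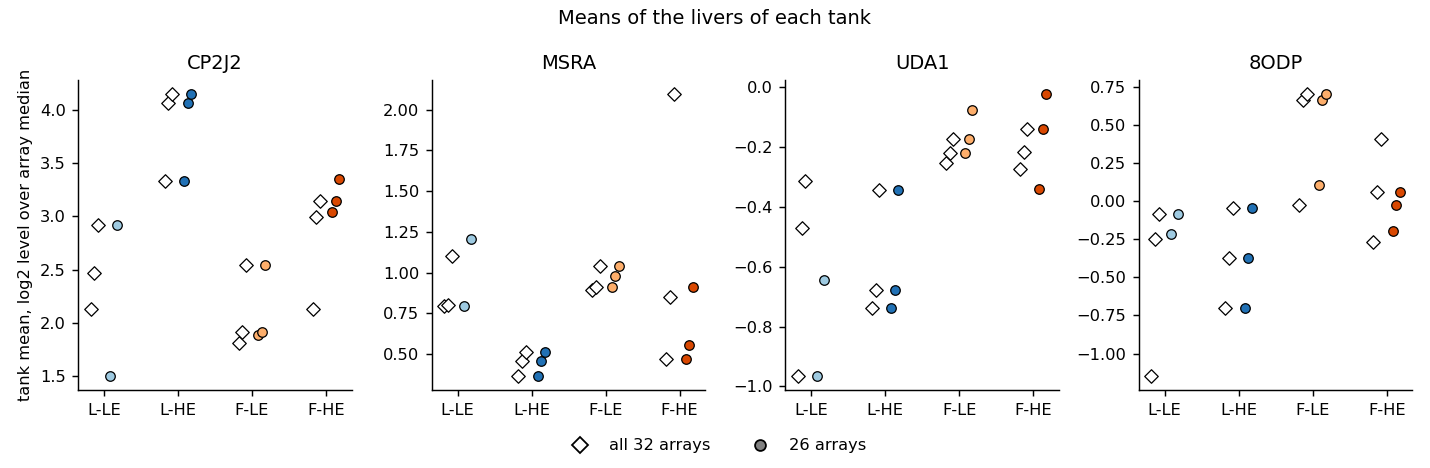
Mean level of the livers of each tank (y axis, log2 over the array median) for CP2J2, MSRA, UDA1 and 8ODP in the 4 groups (x axis). Diamonds use all 32 arrays and circles the 26 kept, which leave 2 tanks in L-LE and a single liver in tank 2 of F-HE. The MSRA tank mean at 2.10 in F-HE holds array 59 and is at 0.91 without it.

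8ODP had lowest, median and highest levels of -1.20, -0.35 and 0.61 on the LE diet and -0.79, -0.28 and 0.07 on the HE diet in the L line. F livers had corresponding levels of -0.30, 0.49 and 0.84 on the LE diet and -0.51, -0.06 and 1.62 on the HE diet. F-LE was the highest group, with all 8 livers above the L-LE median and 6 above the array median, against 1 of 8 in L-LE. The 2 lowest L-LE values, -1.20 and -1.09, were on arrays of low correlation, and the highest F-HE value was array 59. The line difference was 0.63 (standard error 0.177, adjusted p = 0.999) on 32 arrays and 0.47 (standard error 0.128, adjusted p = 0.352) on 26, a ratio of 1.55 and 1.39. Without a further array, 66 of L-LE, it passed at 0.57 (adjusted p = 0.113). Over tank means it was 0.69 (exact p = 0.015, two-sided permutation) and 0.48 on the 26 (exact p = 0.03).

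The 8ODP diet difference did not list the clone. It was -0.11 (adjusted p = 1) on 32 arrays and -0.37 (standard error 0.128, unadjusted p = 0.00675, adjusted p = 0.359) on 26, and -0.45 (adjusted p = 0.126) without a further array, 45 of L-LE. On the 26 arrays it was -0.56 in F (standard error 0.178, adjusted p = 0.404), where 6 of 6 F-HE livers lay below the F-LE median, and -0.19 in L (standard error 0.183, adjusted p = 0.926). Their difference was -0.36 (standard error 0.255, adjusted p = 0.999) and did not pass. On 32 arrays the diet difference was -0.31 in F (adjusted p = 0.751) and, with the opposite sign, 0.080 in L (adjusted p = 0.931). Over tank means it was -0.13 on 32 arrays (exact p = 0.6, two-sided permutation) and -0.38 on the 26 (exact p = 0.055). No interaction of line and diet passed for any of the 7 clones on 32 or on 26 arrays, where limma called 0 of 7763 clones in either (6.74% and 3.97% at an unadjusted p under 0.05). The smallest unadjusted p of a member was 0.121 for FMO6 on 32 arrays and 0.168 for 8ODP on 26.

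Some markers of other cells moved with the diet. All the markers, those of hepatocytes included, were taken from the study's lists of clones changed by the diet or by the line. Their differences are therefore not independent evidence on the cells in these livers. On 26 arrays parvalbumin fell by 0.39 on the HE diet (adjusted p = 0.0819) and ERMAP fell by 0.89 (adjusted p = 0.000328), while titin (-0.28, adjusted p = 0.347), band 3 (0.44, adjusted p = 0.267) and RHAG (0.0016, adjusted p = 0.999) did not pass. On 32 arrays parvalbumin fell by 0.53 (adjusted p = 0.0709), while ERMAP (-0.76, adjusted p = 0.165), titin (-0.31), band 3 (0.35) and RHAG (0.025, adjusted p = 1 for each of the last 3) did not pass. The 3 erythroid markers did not go the same way with the diet, so their mean does not stand for each of them. On the 26 arrays that mean ranged from 0.88 to 1.18 in the livers of F-LE and 0.71 to 1.06 in those of F-HE. For L-LE it was 0.75 to 1.28 and for L-HE 0.74 to 1.18. The mean level of the 2 muscle markers ranged from 3.88 to 4.28 in F-LE livers and 3.49 to 4.02 in F-HE livers, with 4.06 to 4.25 for L-LE and 3.62 to 4.21 for L-HE. None of the 5 hepatocyte markers passed for the diet. Their median diet difference was -0.27 on 32 arrays and -0.074 on 26, negative for 4 of 5 on either set. Complement C3 was at -0.74 on 32 arrays (limma unadjusted p = 0.0103, adjusted p = 0.926). On 26 arrays 1 hepatocyte marker was higher and 1 lower at an unadjusted p under 0.05. There the complement C3 mean went from 3.68 to 3.04 for L fish and from 3.78 to 3.37 for F fish. The part of all these markers in the diet differences of CP2J2 and MSRA was not tested. No marker passed for the line. The hepatocyte markers had a median line difference of -0.33 on 32 arrays, negative for 5 of 5, and of -0.27 on 26, negative for 3 of 5. On 32 arrays transthyretin was at -0.68 (unadjusted p = 0.0378, adjusted p = 0.999) and alpha-2-macroglobulin at -0.33 (unadjusted p = 0.0394, adjusted p = 0.999). On 26 arrays transthyretin was at -0.36 (adjusted p = 0.544) and plasminogen at -0.29 (adjusted p = 0.540). These 3 had been listed by the study for a lower level in the F line, and their part in the line differences of the members was not tested.

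7 further clones were taken from the same lists: 5 that the study filed under xenobiotic and oxidant metabolism, and 2 of glutathione supply. They were a matrix metalloproteinase, which cleaves matrix proteins (MMP16, tcac0001.p.19), the efflux pump MRP4 (1RT121O16_C_H08), the stress-activated kinase MK12 (tcay0019.k.08), the metal-regulatory transcription factor MTF1 (tcay0010.c.03), glutathione synthetase (GSHB, tcbi0010.o.03), cystathionine gamma-lyase, which makes cysteine (CGL, 1RT101A07_A_A04), and 6-phosphogluconate dehydrogenase, which makes NADPH (6PGD, tcac0006.o.18). All 7 had been listed for the diet, the line or both, so the counts are no independent evidence. For the diet 6PGD fell on 32 arrays by 1.11 (adjusted p = 0.0161) and on 26 by 0.82 (adjusted p = 0.0219), and on 26 arrays MMP16 also passed, higher by 0.74 (adjusted p = 0.105). The other 5 had negative diet estimates on 26 arrays, from -0.42 (MK12, adjusted p = 0.265) to -0.073 (GSHB, adjusted p = 0.903), and did not pass. MRP4, a pump like ABCG2, had a diet difference of -0.26 (standard error 0.0858, adjusted p = 0.688) on 32 arrays and -0.24 (standard error 0.0778, adjusted p = 0.322) on 26, and a line difference of -0.025 and -0.045. The median diet difference of the 7 was -0.26 on 32 arrays and -0.24 on 26, where the median of all clones was -0.01 and -0.017. For the line none passed. The largest estimate on 32 arrays was that of MK12, at 0.51 (standard error 0.136, adjusted p = 0.999), and on 26 arrays that of 6PGD, at 0.61 (standard error 0.178, adjusted p = 0.434). The paper lists 6-phosphogluconate dehydrogenase under different sequences for the diet and for the line, and only tcac0006.o.18 was followed here. MMP16 had no value on array 62, which its fit left out.

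**Figure D4:**
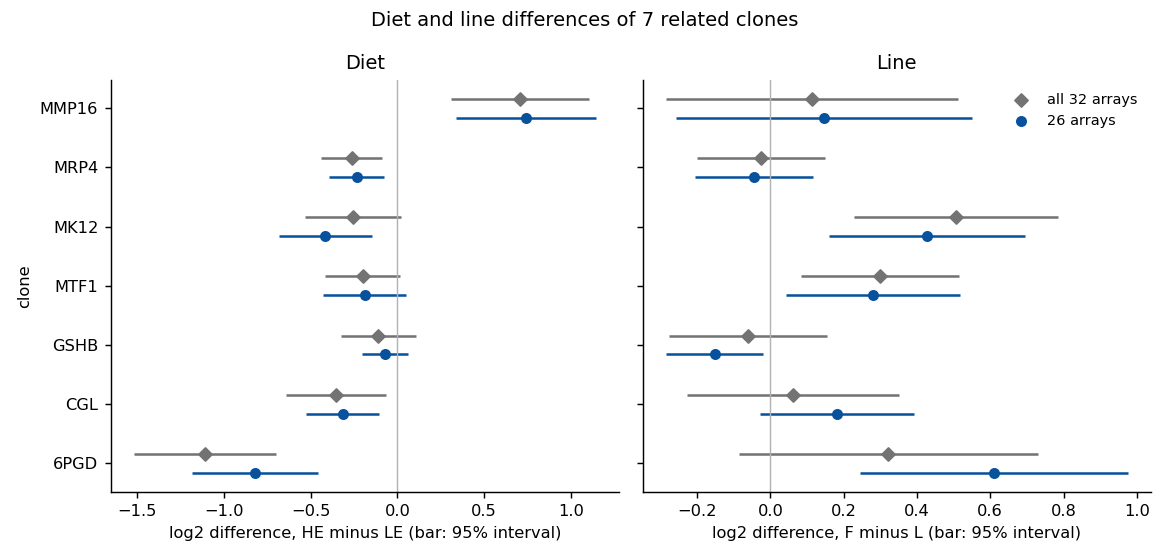
Diet difference (left, HE minus LE) and line difference (right, F minus L) of the 7 related clones, as log2 differences with 95% intervals from limma. Grey diamonds are all 32 arrays and blue circles the 26 kept. 6PGD is lowest and MMP16 highest for the diet on either set of arrays.

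The 7 clones did not order the livers alike. On the 26 arrays the Spearman correlation between 2 of them ranged from -0.66 (CP2J2 and 8ODP) to 0.55 (CP2K4 and UDA1), and after each group's mean was taken off from -0.37 (CP2J2 and 8ODP) to 0.40 (FMO6 and MSRA), as a description over livers that share their groups and tanks. On 32 arrays these ranged from -0.59 (CP2J2 and MSRA) to 0.50 (CP2K4 and 8ODP) and from -0.48 (CP2K4 and FMO6) to 0.45 (CP2K4 and 8ODP). The 3 clones most like each member were not among the 7. CP2J2 was followed most closely by tcba0005.c.08, a match to MAP kinase-activated protein kinase 5 (MAPK5, Spearman 0.971 over 26 arrays), then by tcba0005.n.01 (FABG, 0.826) and tcay0039.l.20 (DYH1B, 0.819). The identifier of tcay0039.l.20 has the same start as that of CP2J2 (tcay0039.p.23), and tcba0005.c.08 and tcba0005.n.01 share theirs. For ABCG2 these were tcay0010.a.20 (ECM29, 0.941), tcay0007.c.21 (SMBP2, 0.939) and tcay0007.g.18 (CALCA, 0.935). For MSRA they were tcad0008.b.16, a match to acetylcholinesterase (ACES, 0.866), tcag0001.a.09 (0.864, no name given) and tcad0009.p.23 (COMD6, 0.832). For 8ODP they were tcad0005.c.22, a match to mitochondrial aspartate aminotransferase (AATM, 0.891), tcad0005.a.06 (TEX10, 0.845) and 1RT80A14_C_A07 (0.761).

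The remaining 3 clones had no such close neighbour. UDA1 was nearest to tcac0001.i.22 (0.681), 1RT58C17_A_B09 (DYR1A, 0.668) and 1RT117B17_B_A09 (0.664), and CP2K4 to 1RT62P05_B_H03 (0.719), 1RT55B08_D_A04 (0.709) and 1RT147N19_B_G10 (0.654). Among 7755 clones ranked on the 26 arrays, CP2K4 was number 10 in likeness to UDA1 and UDA1 number 18 in likeness to CP2K4 (0.554). With each group's mean taken off, their correlation was 0.288. FMO6 was nearest to tcay0031.p.13 (0.64), tcba0015.k.07 (0.59) and tcaa0002.d.03, a match to keratin 8 (K2C8, 0.572). Of the 21 clones, 14 were themselves on the study's lists, which hold 4.03% of the clones tested, and none of the 3 nearest to CP2K4 was. Of the 21 nearest on all 32 arrays, 9 were on the lists. Lists and likeness share the same livers. On all 32 arrays 2 of the 3 nearest clones stayed for CP2J2 and UDA1, 1 for CP2K4, FMO6, ABCG2 and 8ODP, and 0 for MSRA.

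**Figure D5:**
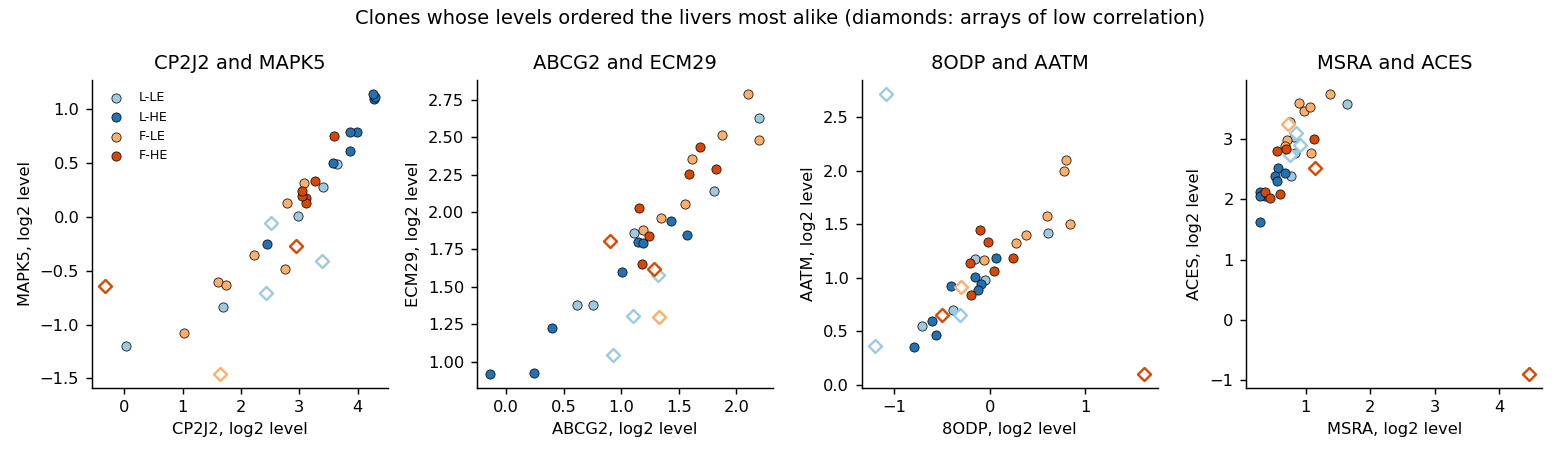
Level of a member (x axis, log2 over the array median) against the level of the clone that ordered the 26 kept arrays most like it (y axis, same unit), for 4 members. Circles are kept arrays coloured by group and diamonds the 6 of low correlation. The circles run along a rising band for CP2J2 and MAPK5 (Spearman 0.971). Array 59 lies apart from the other arrays for MSRA and ACES, at 4.46 and -0.90. For 8ODP and AATM both array 59, at 1.62 and 0.11, and array 56, at -1.09 and 2.72, lie apart.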

How the data were processed

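The authors hybridised 33P-labelled liver cDNA to nylon cDNA arrays, read the signals with AGScan, excluded spots whose vector oligonucleotide signal was under 3 times the background, corrected each spot for its DNA, divided by the array median and took logs in BASE. The deposited values are thus log10 of a signal over the array median. The base was taken from the ratio formula of the methods. Clone values were multiplied by the log2 of 10. A bare 0 (41354 cells) was read as an excluded spot and set to missing. Of 9216 spots, 128 controls, 64 water spots and 1 other were left out.

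Every clone measured on 5 or more arrays of each group entered a limma fit (3.58.1, R 4.3.3) with 1 mean per group. Calls were made where p, adjusted by Benjamini and Hochberg over all clones tested, was under 0.15, as in the methods. limma's moderated test served in place of their ANOVA and SAM. Two-sided exact permutation tests over tank means (400 arrangements with 12 tanks, 200 with 11) used SciPy and Python, 14 per set of arrays on the members and 14 on the related clones, with unadjusted p. The smallest possible p was 0.005. The fit was also run on simulated data with independent noise for each clone and array. These held no tank effects and no arrays of low correlation, so they do not show how the fit behaves with such arrays. Intervals are 95% and, like the limma p, treat livers as replicates, although the diet was given to tanks. The permutation tests over tank means take the tank as the unit, and each tank counts alike whatever its number of livers. Alternatives left out arrays or changed the normalization, filter, test, tank term, weights or threshold.

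The named clones were the 7 members, 7 related clones and, per member, the 3 tested clones of highest Spearman correlation on 26 arrays. Members and lists were chosen with earlier results of these data known. The methods name 6 livers per group, while 8 were analysed here, and the sources do not say which 6 were meant. No sequence or genome position of the clones was used here.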

Additional observations from a re-analysis of the deposited data

Results flagged for a closer look

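Of the 56 sets of 8 or 7 livers (14 named clones in 4 groups), 10 held a lowest or highest liver set apart from the others by more than Dixon's limit, where chance gives about 1 in 20. On array 59 of F-HE, CP2K4 was highest at 3.91 (others 2.77 to 3.27), CP2J2 lowest at -0.32 (others 2.95 to 3.59), MSRA highest at 4.46 (others 0.37 to 1.15), 8ODP highest at 1.62 (others -0.51 to 0.24) and 6PGD lowest at 0.69 (others 1.91 to 2.79). The median Spearman correlation of that array with the others was 0.159 and its control spots had a median of 0.214 (log10), against 1.91 to 2.29 on the 26 kept arrays. GSHB was highest on 3 further arrays of low correlation: -0.77 on array 56 of L-LE (others -1.49 to -1.19), -0.43 on array 62 of F-LE (others -1.63 to -1.30) and -0.68 on array 65 of F-HE (others -1.60 to -1.34).

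The last 2 were on kept arrays. In L-HE, array 17 had the lowest CP2J2 level, 2.45 (others 3.57 to 4.28). In L-LE, array 19 had the highest MSRA level, 1.63 (others 0.75 to 0.90). Array 19 also held the lowest CP2J2 level of that group, 0.03, and the highest CP2K4 level, 3.43, which were not set apart by the same limit.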

How the results depend on the processing

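With 32 arrays 19 clones were called for the diet. This became 74 without the 6 arrays of low correlation, 41 without array 59, 86 where the test was a two-way ANOVA (p under 0.01, unadjusted), 34 with array number as a covariate, 108 with array weights, 0 over tank means and 10 at an adjusted p under 0.05. Without any 1 array it was 14 to 41. For the line it was 0, and 1 without array 59, 53 by ANOVA, 12 with array weights and 0 to 1 without any 1 array (1 without array 67 or 59). For the interaction it was 0, and 53 by ANOVA and 4 with array weights. Tank numbers are given within groups. Of 18 pairs of tanks with the same number in different groups, 8 had a correlation of deviations over 0.1, against 14 of 36 with different numbers. The correlations ran from -0.43 to 0.463 and from -0.553 to 0.588. Pairs so few and so spread cannot show whether the numbers pair the tanks. With tank number as a replicate block 21 clones were called for the diet, 0 for the line and 1 for the interaction, and no member changed its call.

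Among all settings of the members' differences but leaving out 1 array, 233 kept direction and side of the threshold 10 passed where the value on 32 arrays did not, and 6 changed sign. By the two-way ANOVA of the methods, on 32 arrays, those that passed were CP2J2 for the diet and CP2K4, UDA1 and 8ODP for the line. Their differences were 0.96, 0.62, 0.40 and 0.63. The limit there was an unadjusted p under 0.01. The study's ANOVA on a part of these livers had listed these clones for the same contrasts, so this is no independent evidence. By array weights those that passed were CP2J2 (1.08, adjusted p = 0.0155) and MSRA (-0.38, adjusted p = 0.0329) for the diet and UDA1 (0.53, adjusted p = 0.0723) for the line. The sign turned without the 6 arrays for the diet (-0.025) and interaction (0.018) of CP2K4 and the interaction of UDA1 (-0.19), and for UDA1 with array number as a covariate (diet, -0.050), quantile normalization (interaction, -0.041) and array weights (interaction, -0.051). Without any 1 array of 32, the UDA1 diet difference was -0.055 to 0.052 and its interaction -0.065 to 0.12, and the ABCG2 interaction -0.060 to 0.18. On the 26 arrays with 1 more left out, chosen after the data had been seen, CP2K4 was -0.088 to 0.046 and FMO6 -0.037 to 0.080 for the diet. Without array 59 alone CP2J2 passed (1.18) and MSRA went from -0.12 to -0.35. The CP2K4 diet difference, 0.32 on 32 arrays, was 0.22 to 0.40 without any 1 of them.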

Other observations

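After the values had been seen, the identifiers of the 50 clones most like each member on the 26 arrays were counted. For UDA1, whose identifier starts with 1RT, 44 of the 50 started with 1RT, as did 35.2% of all 7755 clones ranked. For ABCG2 27 of 50 started with tcay, as did 16.3% of all, and 9 of the 50 started with tcay0010, out of 30 ranked clones with that start. MSRA had 17 of 50 with its own start (1RT), CP2K4 3 and CP2J2 6 (tcay), FMO6 14 (tcay) and 8ODP 5 (tcad, 5.05% of all). Clones with a Spearman correlation over 0.8 numbered 29 for ABCG2, 8 for MSRA, 3 for CP2J2, 2 for 8ODP and 0 for CP2K4, FMO6 and UDA1. These correlations are over the same 26 livers and arrays.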
